A study of Rattus norvegicus with 60 samples.

Results

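The clock output transcription factors described here are 9 genes, Dbp, Tef, Hlf, Nfil3, Nr1d1, Nr1d2, Rora, Bhlhe40 and Bhlhe41, out of 18166 genes with a probe set on the array. A probe set stood for a gene where the array annotation paired it with exactly 1 symbol. For 7 of the 9 genes there was 1 such probe set each. The Hlf probe set was annotated with 2 gene identifiers under the symbol Hlf, so its values are given apart and it is outside every count of the 7. Nr1d2 was not named by the annotation and was not analysed here. The genes were chosen by measured values of these arrays: Dbp and Tef were higher in contralateral than in sham knees, and Bhlhe41 led the differences between the nodes of bled and sham rats. Comparisons of these groups with sham that the choice used are therefore given as descriptions, without a test.

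RNA was measured on 60 arrays in 20 rats with haemophilia A, an inherited lack of coagulation factor VIII that leads to bleeding into joints. In 11 rats, K1 to K11, a bleed had been induced in the left knee, which the labels call injured, so the injury and the blood cannot be told apart. The other 9 rats, C1 to C9, had a sham procedure, and all tissue was taken 24 h later. Intra-articular knee tissue gave 11 bled knees, 11 contralateral knees of the same rats and 7 sham knees, since the other two sham knees held too little RNA. The popliteal node, a lymph node behind the knee that drains the lower leg, gave 11 bled-side nodes, 11 contralateral nodes and 9 sham nodes. Bled-side samples were left and contralateral and sham samples right, so each comparison with the bled side is also one of left with right. All rats, sham rats included, had haemophilia A, and no rat without it was among the samples. No source used here gives the time of day at which a rat was treated or killed. Differences between bled and sham rats therefore cannot be told apart from differences in time of day.

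The circadian clock of a cell is a loop in which the activators CLOCK and BMAL1 switch on the genes of their own repressors, the PER and CRY proteins. The genes described here sit beside that loop and carry its rhythm to other genes. DBP, TEF and HLF are activators of the PAR bZIP family that bind D-box elements, and NFIL3 represses through the same elements. The nuclear receptors NR1D1 and NR1D2 repress, and RORA activates, genes with ROR elements such as Bmal1. BHLHE40 and BHLHE41 repress genes with E-boxes, the elements that CLOCK and BMAL1 bind. In most tissues of the body these messenger RNAs go through a daily cycle.

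The promoters are shown because 4 of the genes hold an E-box with the letters CACGTG in the window from 250 bases before to 50 bases after the RefSeq start (rat build GRCr8). The search covered both strands. Windows were found for 8 of the 9 genes, and Hlf had none in the table. Each line below gives the E-box in capitals with 12 bases on either side, read along the gene's own strand.
Bhlhe40: agcgttgtccaaCACGTGagactcatgtga
Bhlhe41: tggtacgttccgCACGTGagctgggtgctg
Tef: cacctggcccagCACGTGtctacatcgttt
Nr1d1: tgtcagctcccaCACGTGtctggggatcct
The stretch of Bhlhe40 is chr4:143174218-143174247 on the plus strand, with its E-box 220 bases before the outer start of the gene. The other 3 E-boxes lie inside the annotated span of their gene, before an internal start. That of Bhlhe41, chr4:180569386-180569415 on the minus strand, is 48 bases before the start at 180569355, while the gene's outer start is at 180569415. That of Tef, chr7:115206617-115206646 on the plus strand, is 198 bases before the start at 115206827. That of Nr1d1, chr10:84229628-84229657 on the minus strand, is 191 bases before the start at 84229454, and the window at the outer start of Nr1d1 held none. These letters stood in 6.42% of all 33469 promoter windows of that length. The D-box letters TTATGTAA or TTACGTAA were in 0 of the 9 windows of the genes and in 1.01% of all windows. The ROR element letters ANTAGGTCA or ANTGGGTCA were also in 0 of the 9 windows, against 1.46% of all. A match of letters is a description of the sequence, and no binding was measured here.

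Each value below is a log2 expression value, so a difference of 1 is a 2-fold difference. The medians of the arrays lay between 5.64 and 5.94, and precision was set by the number of arrays. The sham knee of rat C5 had a mean r of 0.957 with its group, against 0.973 for the next array, and the sham nodes of C9 (0.960) and C2 (0.976) also stood apart. Rat K2 stood apart in the clock genes: it had the lowest Dbp, Tef and Bhlhe41 of its group in 4 of 4 groups and the highest Bmal1 in the same 4. Values with and without these rats are given where results rest on them. Adipocyte marker means over 10 genes ran from 8.29 to 9.81 in bled knees, against 11.10 to 11.78 in contralateral and 11.08 to 11.70 in sham knees. Means of 10 neutrophil markers ran from 6.88 to 9.01 in bled knees, 5.70 to 7.98 in contralateral knees and 5.60 to 5.85 in sham knees. Monocyte and macrophage markers ran from 10.40 to 11.08 in bled, 9.78 to 10.43 in contralateral and 9.28 to 10.09 in sham knees. Means of 11 fibroblast and synovial lining markers ran from 10.69 to 11.33 in bled, 11.22 to 11.75 in contralateral and 11.62 to 11.94 in sham knees. Means of 5 skeletal muscle markers spanned 6.40 to 12.75 in bled, 6.73 to 13.07 in contralateral and 6.88 to 13.11 in sham knees. The tissues matched their labels by lymphocyte markers, with B cell means of 5.28 to 6.44 in knees and 10.62 to 11.31 in nodes. In such whole-tissue samples, fewer cells of a type and less RNA per cell cannot be told apart.

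**Figure D1:**
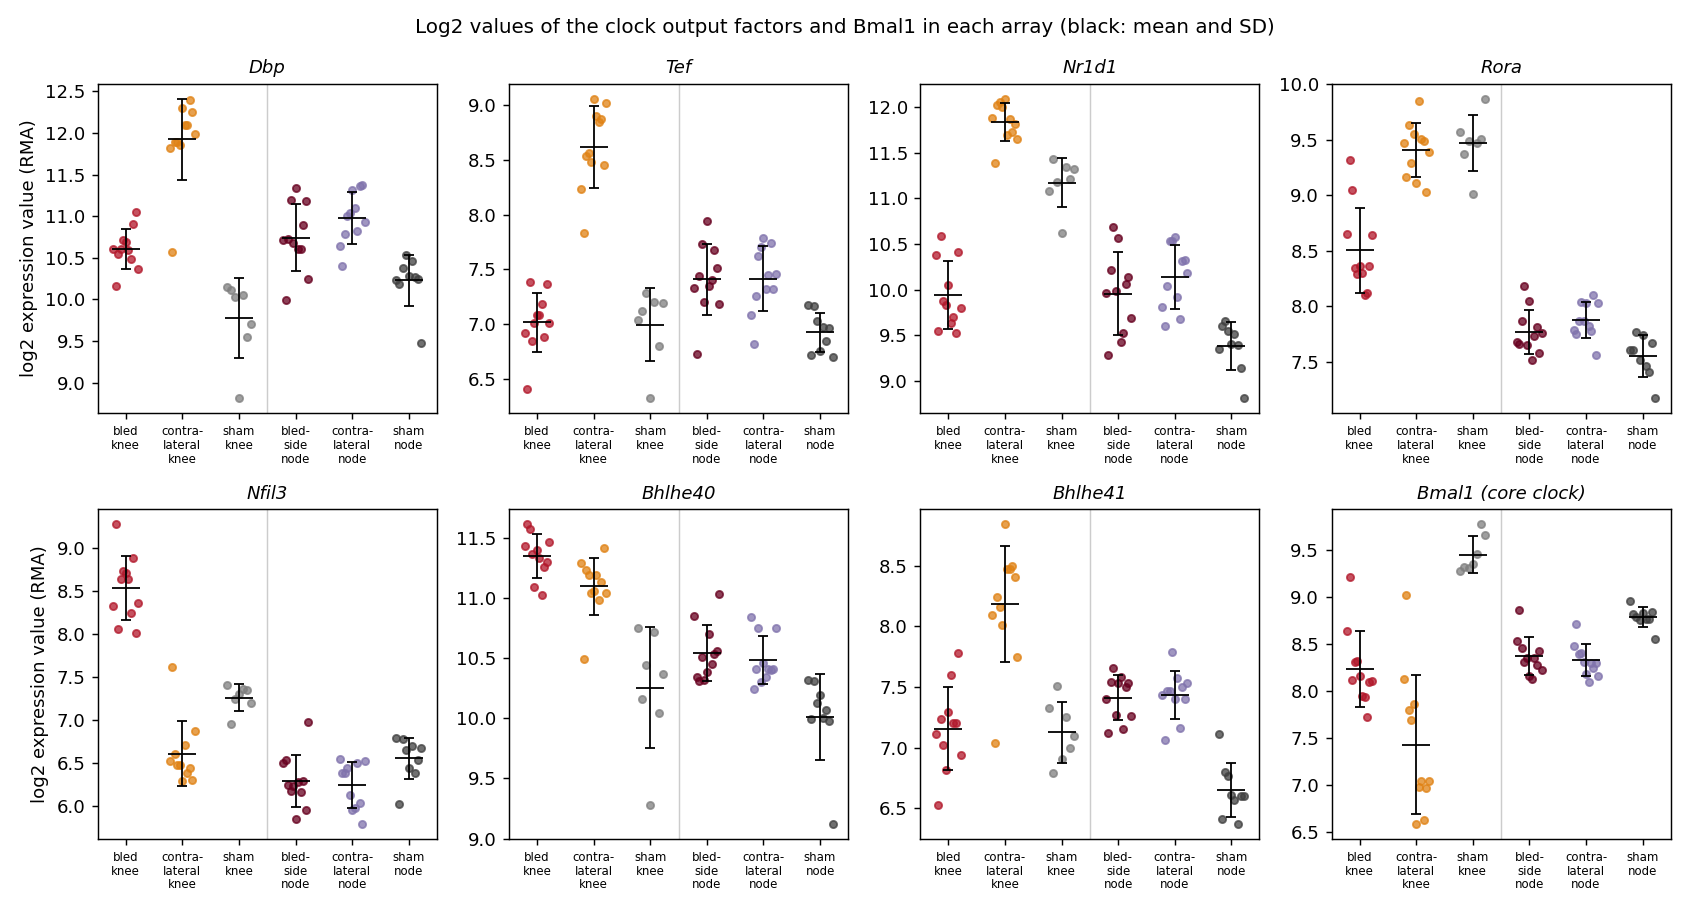
Log2 expression values (vertical axis) of the 7 clock output factors and of the core clock gene Bmal1, with 1 point per array in each of the 6 groups (n = 11, 11 and 7 knees and 11, 11 and 9 nodes); black bars are the mean and SD. Dbp and Tef are highest in the contralateral knees, Nfil3 is highest and Nr1d1 and Rora are lowest among knees in the bled ones, and the nodes of both sides lie close together.

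In the bled knee, set against the contralateral knee of the same rats, Nfil3 rose and Dbp, Tef, Nr1d1, Rora and Bhlhe41 fell, while Bhlhe40 did not pass the test. That is 6 of the 7 genes called at an adjusted p under 0.05 (limma, Benjamini-Hochberg over all probe sets), 1 higher and 5 lower, where 34.7% of all probe sets were called, 19.5% higher and 15.2% lower. The groups did not overlap for 3 of the 7 (Tef, Nr1d1 and Nfil3), as for 13.5% of all probe sets. The median difference was −1.02 over the 7 genes and 0.00 over all probe sets. These comparisons use the same contralateral arrays as the one that chose Dbp and Tef, so low values relative to them are not independent of the choice. Against sham knees, 5 of the 7 were called in the bled knee, 3 higher (Dbp, Nfil3, Bhlhe40) and 2 lower (Nr1d1, Rora), with 38.7% of all probe sets called, 19.9% higher and 18.8% lower. The groups did not overlap for 4 of the 7, against 14.6% of all probe sets, and this comparison shares its sham arrays with the one that chose the genes.

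Dbp (probe set 17616470, gene at chr1:105312256-105317205) encodes a D-box activator with a wide daily swing in many tissues. Its values had a lowest, median and highest of 10.16, 10.60 and 11.05 in bled knees, of 10.57, 11.99 and 12.40 in contralateral knees and of 8.81, 10.03 and 10.15 in sham knees. The bled knees thus lay between the others, above every sham knee and below all contralateral knees except that of K2, which had 10.57. Dbp averaged 10.61 ± 0.24 in bled, 11.92 ± 0.49 in contralateral and 9.77 ± 0.48 in sham knees (SD, n = 11, 11 and 7). It was 2.49-fold lower in bled than in contralateral knees (log2 difference −1.31 ± 0.17 SE, 95% interval −1.66 to −0.97, limma adjusted p = 9.23e-08), and lower in 11 of 11 rats. It was 1.79-fold higher in bled than in sham knees (0.84 ± 0.19, adjusted p = 0.000563), and 0.68 without C5 (adjusted p = 0.00261). The contralateral knees lay 2.15 above sham knees, without overlap, and 1.99 above them without C5. Without K2 the difference between bled and contralateral knees was −1.41.

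Tef (17830985, gene at chr7:115197180-115221930) encodes a second PAR bZIP activator. Bled knees had a lowest, median and highest of 6.41, 7.01 and 7.38, contralateral knees of 7.83, 8.56 and 9.06, and sham knees of 6.32, 7.12 and 7.28. Every contralateral knee was above every bled and every sham knee, and the bled and sham knees covered nearly the same range. Tef was 3.04-fold lower in bled than in contralateral knees (−1.60 ± 0.13, 95% interval −1.88 to −1.33, adjusted p = 2.37e-11, lower in 11 of 11 rats). Between bled and sham knees the difference was 0.02 ± 0.15, with a 95% interval of −0.29 to 0.33 (adjusted p = 0.931). Tef and Dbp thus shared the order of bled and contralateral knees, but Dbp passed the test against sham and Tef did not; the difference between the genes was not tested. The described difference of contralateral from sham knees was 1.62 for Tef, 1.51 without C5 and 1.70 without K2. Groups without overlap in this comparison made up 0.202% of all probe sets, and the 2 genes were chosen for it.

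Hlf, the third PAR bZIP gene, had values of 4.38 to 4.91 in bled, 4.54 to 5.31 in contralateral and 4.70 to 5.42 in sham knees. These are under all array medians, a range in which background flattens differences, and the 2 gene identifiers of the probe set leave its identity less certain. With that limit it was lower in bled than in contralateral knees by a log2 difference of −0.41 ± 0.09 (adjusted p = 0.000301, lower in 11 of 11 rats). Against sham knees the difference was −0.32 ± 0.10 (adjusted p = 0.0102).

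Nfil3 (17714621, gene at chr17:12432376-12447605), whose product represses through the D-box and is also induced by cytokines in immune cells, moved opposite to Dbp and Tef between the sides. Its lowest, median and highest values were 8.02, 8.64 and 9.28 in bled knees, 6.29, 6.48 and 7.62 in contralateral knees and 6.95, 7.31 and 7.41 in sham knees. Every bled knee was above every other knee. It rose 3.81-fold in bled over contralateral knees (1.93 ± 0.14, 95% interval 1.64 to 2.21, adjusted p = 9.22e-13, higher in 11 of 11 rats). It was 2.42-fold higher in bled than in sham knees (1.28 ± 0.16, adjusted p = 6.79e-08). In the contralateral knees 10 of 11 values lay below every sham value, and K2 with 7.62 lay above them all, for a described difference of −0.65, or −0.75 without K2. Neutrophil, macrophage and T cell marker means were also higher in bled than in contralateral knees, and their part in the result was not tested. The lists were mixed: 6 of 10 neutrophil markers were called higher and 1 lower. For monocyte and macrophage markers it was 7 and 2 of 10, and for T cell markers 9 and 1 of 10. Of all probe sets, 19.5% were called higher and 15.2% lower.

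Nr1d1 (17660843, gene at chr10:84224599-84231812) encodes the receptor REV-ERB alpha, which represses Bmal1. It had a lowest, median and highest of 9.52, 9.83 and 10.59 in bled knees, of 11.39, 11.87 and 12.09 in contralateral knees and of 10.62, 11.21 and 11.43 in sham knees. Bled knees were below all others, and 10 of 11 contralateral knees were above all sham knees. It fell in bled against contralateral knees to a level 3.71-fold lower (−1.89 ± 0.12, 95% interval −2.14 to −1.64, adjusted p = 7.79e-14, lower in 11 of 11 rats). Against sham knees it was 2.34-fold lower (−1.23 ± 0.14, adjusted p = 1.14e-08). So Nr1d1 and Dbp, both targets of CLOCK and BMAL1, differed in sign in the bled knee against sham, with intervals of −1.51 to −0.95 for Nr1d1 and 0.45 to 1.22 for Dbp. The described difference of contralateral from sham knees was 0.67 for Nr1d1 and 0.57 without C5. Of the adipocyte markers 10 of 10 were also called lower in bled knees in either comparison. Of the fibroblast and lining markers it was 7 of 11, with 1 higher against contralateral knees. Of all probe sets 15.2% were lower against contralateral and 18.8% against sham knees. The part of these markers in the lower values of Nr1d1, Rora, Dbp, Tef and Bhlhe41 was not tested.

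Rora (17845526, gene at chr8:78182710-78915730), whose product activates the elements that NR1D1 represses, was the other of the 7 genes lower in bled knees against both knee groups. It had a lowest, median and highest of 8.10, 8.36 and 9.32 in bled knees, of 9.03, 9.47 and 9.85 in contralateral knees and of 9.01, 9.49 and 9.87 in sham knees. Contralateral and sham knees covered the same range, and K2 and one further bled knee reached into it. Rora was 1.87-fold lower in bled than in contralateral knees (−0.90 ± 0.13, adjusted p = 5.77e-07, lower in 10 of 11 rats). The difference from sham knees was −0.97 ± 0.14 (adjusted p = 1.79e-06). Contralateral and sham knees differed by −0.06. Without K2, Rora was lower in bled than in contralateral knees by a log2 difference of −1.01.

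Bhlhe40 (17785849, gene at chr4:143174450-143180150), the gene of the E-box repressor DEC1, had a lowest, median and highest of 11.02, 11.36 and 11.61 in bled knees. The same values were 10.49, 11.13 and 11.41 in contralateral knees and 9.28, 10.37 and 10.75 in sham knees. Bled knees were above all sham knees and overlapped with contralateral knees. It rose 2.14-fold in bled over sham knees (1.10 ± 0.14, 95% interval 0.81 to 1.39, adjusted p = 1.72e-07), or by 0.93 without C5. Against contralateral knees the difference was 0.25 ± 0.13 (adjusted p = 0.131, higher in 10 of 11 rats), which passed the test without C5 (adjusted p = 0.0382) and with the muscle marker mean as a covariate (0.41, adjusted p = 0.00311). The described difference of contralateral from sham knees was 0.84, and 0.68 without C5.

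Bhlhe41 (17796582, gene at chr4:180565003-180569415), the gene of the related repressor DEC2, followed Tef rather than Bhlhe40 in its order of groups. Bled knees had a lowest, median and highest of 6.53, 7.20 and 7.78, contralateral knees of 7.04, 8.24 and 8.84, and sham knees of 6.79, 7.10 and 7.51. Bled and sham knees lay together, and 10 of 11 contralateral knees were above every sham knee, the exception being K2. Bhlhe41 was 2.03-fold lower in bled than in contralateral knees (−1.02 ± 0.16, 95% interval −1.34 to −0.70, adjusted p = 2.68e-06, lower in 11 of 11 rats). Between bled and sham knees the difference was 0.03 ± 0.18, with a 95% interval of −0.33 to 0.39 (adjusted p = 0.917). The described difference of contralateral from sham knees was 1.05, and 1.17 without K2.

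**Figure D2:**
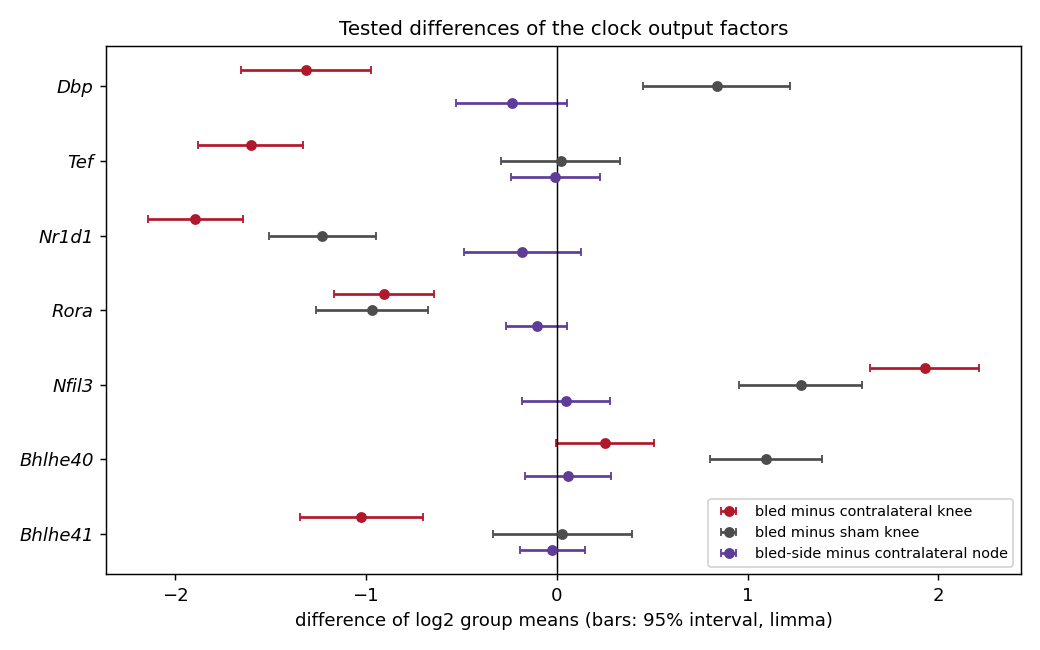
Differences of log2 group means (horizontal axis) for the 7 genes, with 95% intervals from limma, in the bled knee against the contralateral knee, the bled knee against the sham knee and the bled-side node against the contralateral node. Nfil3 lies right and Nr1d1 and Rora left of 0 in both knee comparisons, Dbp changes side between them, and all 7 node intervals include 0.

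In the lymph nodes the sides did not differ by any call. Of the 7 genes, 0 were called between bled-side and contralateral nodes, as were 0% of all probe sets (limma), and at an unadjusted p under 0.05 it was 0 of the 7 genes and 2.34% of all probe sets. The differences ran from −0.24 ± 0.14 for Dbp (95% interval −0.52 to 0.05, lower in 8 of 11 rats) to 0.06 ± 0.11 for Bhlhe40. Nr1d1 differed by −0.18 ± 0.15, with a 95% interval of −0.49 to 0.13. These counts and intervals come from a fit that takes both nodes of a rat as independent. Between the nodes of a rat, the 7 genes correlated at r = 0.42 (Bhlhe41) to 0.80 (Nr1d1), with Dbp at 0.74. A test paired by rat for each gene was not run, so small side differences in the node remain undecided. The nodes of both sides lay away from sham nodes, which is a description here, since Bhlhe41 was chosen for it. Bhlhe41 had a lowest, median and highest of 7.12, 7.50 and 7.66 in bled-side nodes, of 7.06, 7.47 and 7.79 in contralateral nodes and of 6.37, 6.60 and 7.11 in sham nodes. All 11 bled-side nodes and 10 of the 11 contralateral nodes were above every sham node, at differences of 0.76 and 0.79. Groups without overlap made up 0.188% of probe sets for the bled side against sham and 0.251% for the contralateral side against sham.

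The other genes of the nodes lay in the same direction from sham except Nfil3. Dbp had a lowest, median and highest of 9.99, 10.71 and 11.34 in bled-side nodes, of 10.40, 11.00 and 11.38 in contralateral nodes and of 9.48, 10.27 and 10.53 in sham nodes. Most bled-rat nodes were above all sham nodes, 9 of 11 on the bled side and 10 of 11 on the contralateral side. Nr1d1 differed from sham by 0.58 on the bled side and 0.76 on the contralateral side, Tef by 0.49 on both, and Bhlhe40 by 0.53 and 0.47. Rora lay 0.22 and 0.33 above sham. Nfil3 was at −0.26 and −0.31. The groups overlapped with sham nodes on both sides for Dbp, Tef, Nr1d1, Rora, Bhlhe40 and Nfil3. Without the sham nodes of C2 and C9 the differences of Dbp were 0.40 on the bled side and 0.64 on the contralateral side, and those of Bhlhe41 were 0.72 and 0.74. Means of 10 monocyte and macrophage markers were 9.32 to 10.21 in bled-side, 9.33 to 10.03 in contralateral and 8.40 to 9.39 in sham nodes. Among them Vsig4 (1.61 and 1.77) and Cd163 (1.21 and 1.27), named after their values were seen, lay above sham nodes on the bled and contralateral sides. Others of the list lay near sham, namely Csf1r (−0.09 and −0.08), Adgre1 (−0.05 and 0.05) and Mrc1 (−0.0016 and 0.0102). The rest of the list lay between these. Neutrophil means were 6.07 to 6.54 in bled-side, 6.11 to 6.47 in contralateral and 5.81 to 6.16 in sham nodes. The bled-rat nodes were thus mostly higher in the means of both lists. Adipocyte means overlapped more, at 7.18 to 9.26 in bled-side, 8.46 to 9.19 in contralateral and 7.20 to 9.07 in sham nodes. The part of these lists in the differences from sham was not tested.

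The difference between the sides was set against itself in knee and node in a model of all 60 arrays. It differed between the tissues for 6 of the 7 genes (limma adjusted p under 0.05), 1 higher and 5 lower in the knee, while 27.8% of all probe sets were called, 15.5% higher and 12.4% lower. Nfil3 had the largest knee-minus-node value of the side difference, 1.88 ± 0.18 (adjusted p = 5.05e-13). Nr1d1 was at −1.71 ± 0.20, Tef at −1.60 ± 0.18, Dbp at −1.08 ± 0.22, Bhlhe41 at −1.0009 ± 0.18 and Rora at −0.80 ± 0.15, with adjusted p-values of 1.30e-05 or lower except for Dbp (7.00e-05). Bhlhe40 was at 0.19 ± 0.17 (adjusted p = 0.497). This contrast contains the knee side difference given above, so the calls are not separate evidence of it. It also contains the contralateral knees by which Dbp and Tef were chosen, so their calls are not independent of the choice.

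The tissues themselves differed in sham rats, in values whose joint normalization is not stated. Of the 7 genes 5 were called between sham knees and sham nodes, 4 higher and 1 lower in the knee, where 52.5% of all probe sets were called, 24.3% higher and 28.3% lower. For 3 of the 7 the groups did not overlap, as for 20.7% of all probe sets. This comparison uses the sham arrays against which Dbp, Tef and Bhlhe41 were chosen. Its results for these genes are therefore not independent of the choice. Rora was 3.78-fold higher in sham knees than in sham nodes (1.92 ± 0.13, adjusted p = 1.43e-20). Its values were 9.01 to 9.87 in sham knees and 7.17 to 7.77 in sham nodes. Nr1d1 was higher by 1.79 ± 0.17 (adjusted p = 1.92e-14), Nfil3 by 0.71 ± 0.15 and Bhlhe41 by 0.48 ± 0.15. Dbp was lower in sham knees by a log2 difference of −0.46 ± 0.19 (adjusted p = 0.0338), and without the sham knee of C5 by −0.30 (adjusted p = 0.180).

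Between bled knees and bled-side nodes 4 of the 7 were called, 3 higher and 1 lower in the knee, with 41.3% of all probe sets called, 20.1% higher and 21.2% lower. The groups did not overlap for 1 of the 7 (Nfil3), against 16.6% of all probe sets. Nfil3 was higher in the knee by 2.25 ± 0.13 (adjusted p = 5.93e-23), and Nr1d1 differed by −0.02 ± 0.14 (95% interval −0.30 to 0.26). Bhlhe40 was higher by 0.80 ± 0.12 and Rora by 0.73 ± 0.11. Tef was lower by a log2 difference of −0.39 ± 0.13 (adjusted p = 0.00900). For Dbp the order of group means ran from contralateral knee (11.92) over contralateral node (10.98), bled-side node (10.74), bled knee (10.61) and sham node (10.23) to sham knee (9.77). The bled knee and bled-side node, neighbours in that order, did not pass the test (−0.13 ± 0.16, adjusted p = 0.543).

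Other genes of the clock moved in both directions in the bled knee. Of 12 measured core loop genes, 3 were called higher and 6 lower in bled than in contralateral knees (median −0.39). Against sham knees 3 were higher and 5 lower (median −0.15). Of all probe sets, 19.5% were called higher and 15.2% lower against contralateral knees, and 19.9% and 18.8% against sham knees. Per3, a repressor gene of the loop, was lower in bled than in contralateral knees by a log2 difference of −1.45 ± 0.14 (adjusted p = 5.29e-10), and did not pass the test against sham (−0.11). Per2 behaved alike (−1.01 ± 0.16 and 0.09), Ciart was at −0.84 ± 0.18 against contralateral and 0.64 against sham knees, and Cry1 was higher against both (0.83 ± 0.12 and 0.78 ± 0.14). Bmal1 had a lowest, median and highest of 7.72, 8.11 and 9.21 in bled knees, of 6.58, 7.04 and 9.02 in contralateral knees and of 9.27, 9.35 and 9.77 in sham knees. Bled knees thus lay between the others, the reverse of Dbp in order: 0.80 ± 0.22 above contralateral knees (adjusted p = 0.00320) and −1.22 ± 0.24 from sham knees (adjusted p = 0.000135). Npas2, which encodes a partner of BMAL1 in place of CLOCK, was at −2.29 ± 0.26 in bled against sham knees (adjusted p = 1.62e-08) and at −0.47 ± 0.23 against contralateral knees (adjusted p = 0.122).

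Of 15 genes known to follow the clock in several tissues, 4 were higher and 6 lower in bled than in contralateral knees, led by Klf15 (−2.37 ± 0.16), Klf9 (−1.51 ± 0.13) and Tsc22d3 (−1.46 ± 0.20), which glucocorticoids also induce. Against sham knees 4 were higher and 5 lower. Of 5 measured genes of the vitamin B6 and detoxification pathways that PAR bZIP factors control in mouse liver, 2 were higher and 1 lower in either knee comparison. For both lists, the shares of all probe sets were 19.5% higher and 15.2% lower against contralateral knees, and 19.9% and 18.8% against sham knees. Pdxk, the gene of pyridoxal kinase, was higher by 0.70 ± 0.09 in bled than in contralateral knees, although Dbp and Tef were lower there. Abcb1a, the gene of a drug efflux pump, was at −0.89 ± 0.13. Between the sides in the node, 0 of the 12, 0 of the 15 and 0 of the 5 genes were called (limma). Of all probe sets 0% were called there. At an unadjusted p under 0.05 (limma, both nodes of a rat taken as independent) it was 0 of these genes and 2.34% of all probe sets. In sham knees against sham nodes, 9 of the 15 clock-following genes were higher and 1 was lower, with 24.3% and 28.3% of all probe sets.

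Within the groups, some of the 7 genes went up and down together from array to array. The deviations of each array from its group mean were correlated as a description, over 29 knee and 31 node arrays that share processing and, in bled rats, animals. Dbp and Tef correlated at r = 0.77 in the knee and 0.80 in the node. Dbp and Bhlhe41 were at 0.74 in the knee and 0.48 in the node, and Dbp and Nr1d1 at 0.47 and 0.82. Nfil3 ran opposite to Nr1d1 in the knee (−0.69) and to Dbp in the node (−0.61). Rora had no relation to Dbp in the knee (0.01). Bmal1 was negatively related to Dbp (−0.71), Tef (−0.72) and Bhlhe41 (−0.74) in the knee, and its value with Nr1d1 was −0.09. In the node the values of Bmal1 were −0.39 with Dbp, −0.54 with Tef, −0.31 with Bhlhe41 and −0.26 with Nr1d1.

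Many of these values rested on rat K2. Without its arrays, Dbp correlated in the knee at 0.64 with Tef, 0.50 with Bhlhe41 and 0.31 with Nr1d1. The knee values of Bmal1 were then −0.42 with Dbp, −0.50 with Tef and −0.47 with Bhlhe41, and that with Nr1d1 turned to 0.33. In the node Dbp was at 0.70 with Tef, 0.76 with Nr1d1 and 0.31 with Bhlhe41. Bmal1 in the node was then at 0.01 with Dbp, −0.13 with Tef, 0.04 with Bhlhe41 and 0.13 with Nr1d1. Nfil3 stayed at −0.63 with Nr1d1 in the knee and at −0.61 with Dbp in the node. Its other knee values shrank without K2, from −0.57 to −0.11 with Dbp, from −0.61 to −0.26 with Tef and from −0.67 to −0.31 with Bhlhe41.

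**Figure D3:**
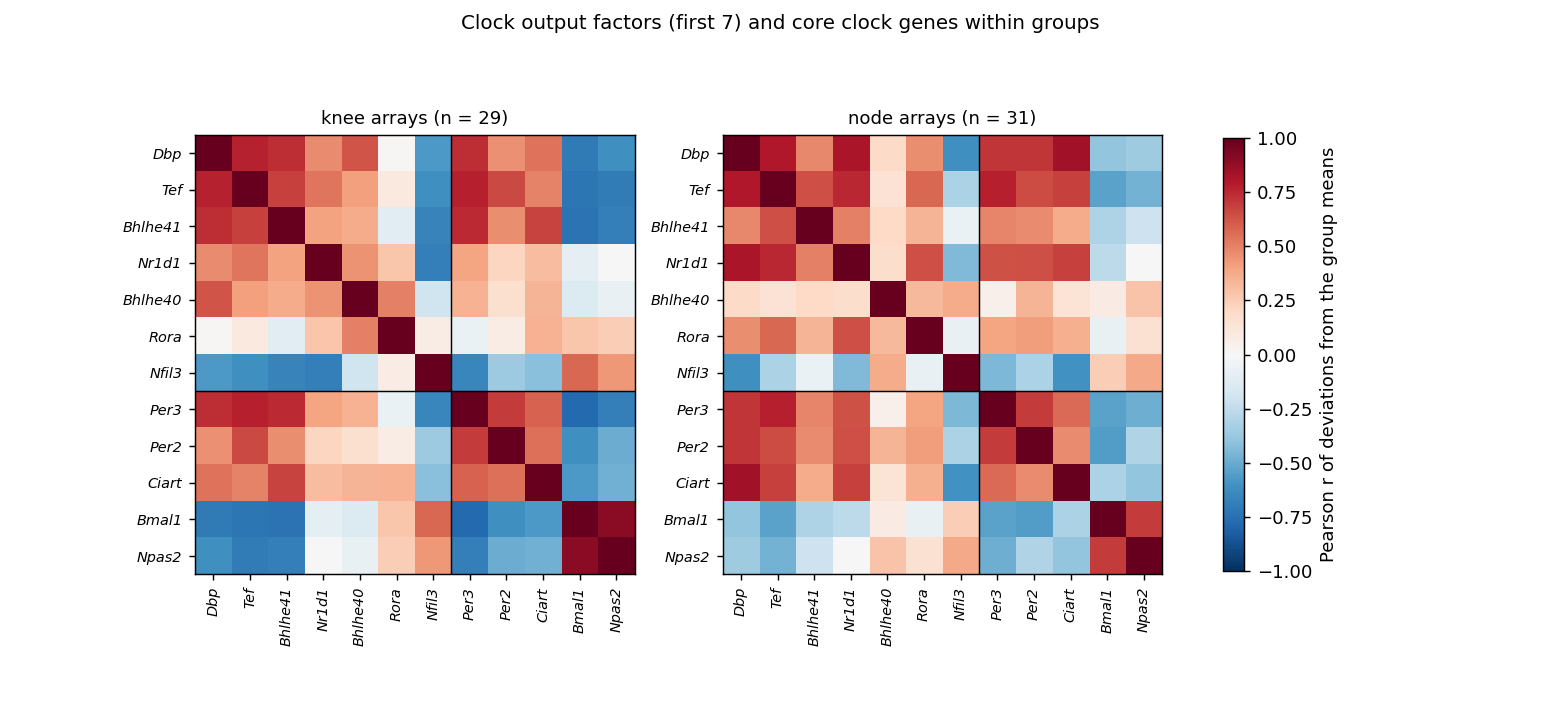
Pearson correlations (colour, from −1 in blue to 1 in red) of deviations from the group means, for the 7 clock output factors and 5 core clock genes, over 29 knee arrays on the left and 31 node arrays on the right. All arrays are included, those of rat K2 too: Dbp, Tef and Bhlhe41 form a red block in the knee that Bmal1 and Npas2 oppose, and Nr1d1 joins Dbp and Tef in the node.

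Over all arrays, those of K2 included, and among genes with a mean above the median of the tissue, those whose deviations were most like Dbp in the knee were Tef (0.77), Per3 (0.74), Tbc1d7 (0.74) and Bhlhe41 (0.74), out of 11640 genes. The most opposite were Clock (−0.76), Bmal1 (−0.71), Raly (−0.70) and Arhgap10 (−0.68). In the node, Dbp was most like Arhgap24, Ciart and Tnfsf10 (each 0.84) and Calcoco1 (0.82), out of 11290. Its most opposite genes there were Ptpn1 (−0.77), Sbno2 (−0.76), Slc39a7 (−0.76) and Mrps14 (−0.75). Ciart encodes a repressor of the clock. Nfil3 in the knee was most like Arrdc4 (0.75), Arrdc3 (0.74), Chka (0.73) and Btg1 (0.71) and most opposite to the matrix genes Loxl1 (−0.81), Col3a1 (−0.78) and Fbn1 (−0.76), and to Sfrp4 (−0.75). Nr1d1 in the knee was most like Zdhhc1 (0.81), Dagla (0.79), Prkca (0.78) and Lmna (0.78), with no clock gene among the 4, and most opposite to Erfe (−0.72), Ptprn (−0.71), Wfdc15b (−0.69) and Or52l1 (−0.69). Bhlhe41 in the node was most like Jchain (0.73), the gene of the immunoglobulin joining chain, Gucy1a1 (0.72), Pamr1 (0.72) and Zbtb38 (0.70), and most opposite to Faf1, Nhp2 and Mettl2 (each −0.69) and Arpc1b-ps2 (−0.67).

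Samples of 1 rat could also be set against each other. Over 32 relations between samples of the same rat, 7 had an adjusted p under 0.05 for Pearson's r (permutation test, two-sided) and 11 an unadjusted p under 0.05, and by Spearman's rho the lowest adjusted p was 0.0577. Among those 7, Dbp in the contralateral knee with Dbp in the contralateral node (n = 11 rats) had the lowest p. There r was 0.83 (permutation p = 0.00028, adjusted 0.00896) and rho was 0.83 (permutation p = 0.00253, adjusted 0.0577), and r was 0.79 without the 2 rats farthest from the median and 0.83 without K2. K9, K10 and K6 were high in both tissues and K2 was low in both. Nr1d1 in the nodes of both sides gave r = 0.80 and rho = 0.80 (adjusted permutation p = 0.049 for r), and 0.68 without the 2 farthest rats. Tef in the contralateral knee and node gave r = 0.75, but 0.39 without the 2 farthest rats, so that relation rested on them. The others of the 7 also fell without the 2 farthest rats. Between the nodes, Tef went from 0.74 to 0.29 and Dbp from 0.74 to 0.47. Between the knees, Dbp went from 0.75 to 0.505 and Bhlhe41 from 0.77 to 0.69. In sham rats Dbp in the knee and node gave r = 0.09 (n = 7, exact permutation p = 0.887) but 0.86 without the 2 farthest of the 7 rats, so it rested on single rats. By the exact permutation test, 0 of the sham relations passed an adjusted p of 0.05.

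Within the bled knees, 21 relations of the 7 genes with marker means were computed after their values had been seen. Tef was lower where the neutrophil mean was higher (r = −0.93, adjusted permutation p = 0.00294; rho = −0.85, adjusted 0.0186; n = 11), with r = −0.74 without the 2 farthest rats and −0.83 without K2. Nfil3 went the other way with the neutrophil mean (r = 0.81, adjusted permutation p = 0.0153), and r was 0.47 without the 2 farthest rats. Nr1d1 was lower where the neutrophil mean was higher (r = −0.70, adjusted permutation p = 0.0387; rho = −0.73, adjusted 0.0748), with r = −0.58 without the 2 farthest rats and −0.75 without K2. Bhlhe40 was higher where the muscle mean was higher (r = 0.86, adjusted permutation p = 0.00315; rho = 0.89), and so was Rora (r = 0.79, adjusted permutation p = 0.0153; rho = 0.78). With the muscle mean as a covariate, the 6 calls between bled and contralateral knees were kept, with Rora at −0.75 and Nr1d1 at −1.78. A part of neutrophil content in the values of Tef, Nfil3 and Nr1d1 was not tested.

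**Figure D4:**
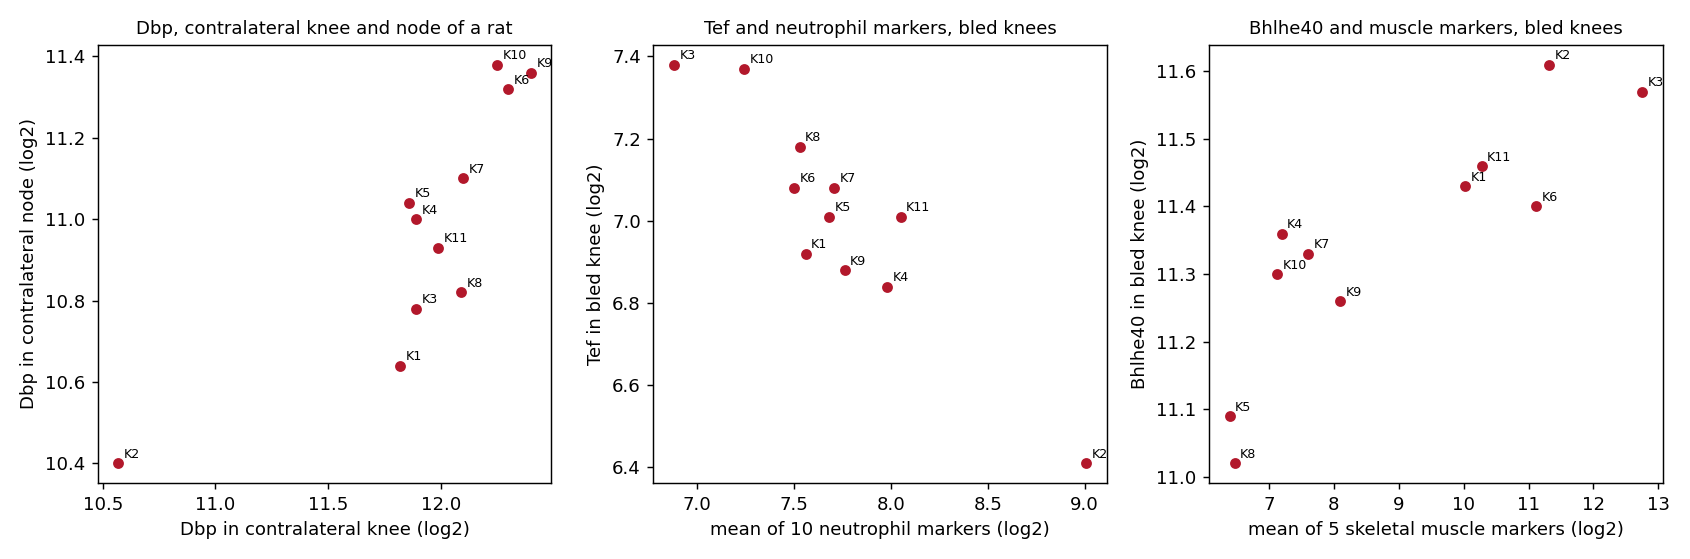
Points are the 11 bled rats, named by number, on log2 axes: Dbp in the contralateral knee (horizontal) and contralateral node (vertical), Tef in the bled knee against the mean of 10 neutrophil markers, and Bhlhe40 in the bled knee against the mean of 5 skeletal muscle markers. Dbp of both tissues goes up together, Tef goes down as the neutrophil mean goes up, with K2 at the far end, and Bhlhe40 goes up with the muscle mean.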

How the data were processed

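The values were log2 expression values deposited by the authors for 36685 probe sets on 60 arrays, which, per the submitters' processing notes, came from RMA in version 1.4.46 of Affymetrix Expression Console. No source used here says whether knee and node arrays were normalized together or which arrays shared a hybridization or scan batch. The annotation listed 19086 probe sets, 18511 of them with 1 symbol, and GRCr8 positions and promoters came from RefSeq. Groups and rats came from the sample labels.

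Linear models of all probe sets, unfiltered, were fitted with limma 3.58.1 in R 4.3.3 (lmFit, eBayes) per tissue (29 knee and 31 node arrays), or over all 6 groups for contrasts between tissues. P-values were two-sided with Benjamini-Hochberg adjustment over all probe sets, and a call is an adjusted p under 0.05. These p-values measure the spread between arrays within groups, and the fits take arrays of 1 rat as independent. Rat correlations used 100000 resamples, or exact enumeration with 7 rats, in Python 3.11.15 with scipy 1.17.1. The script was tested on simulated data.

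Both sides of a bled rat come from 1 animal, per the labels, so rat pairs them. Deviations correlated between sides at −0.10 to 0.21 in knees and 0.12 to 0.32 in nodes. Fits reported have no block.

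The genes, the lists and their tests were chosen with earlier results of these data known. Named genes were all 9 members, up to 4 genes per list by size of difference, Bmal1, Npas2, Per2, Per3, Ciart and Cry1, and the 4 genes most like and most opposite to Dbp, Nr1d1 and Nfil3 in the knee and Bhlhe41 and Dbp in the node. Protein sequences were not used here. Alternatives were another normalization and centring, filters, weights, priors, covariates, the groups compared alone, a rat block and single arrays left out.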

Additional observations from a re-analysis of the deposited data

Results flagged for a closer look

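The sham node of rat C9 had the lowest Dbp of its group, 9.48, with the next sham node at 10.18, a gap of 0.667 of the whole range. The same array had the lowest Bhlhe40, 9.12, with the next at 9.98 and a gap of 0.717 of the range. Both exceed Dixon's critical value for 9 samples, a limit that chance passes in about 1 in 20 groups. The check covered the 7 genes and Hlf in both sham groups, so some flags can arise by chance. The array of C9 also correlated least with the other sham nodes.

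The difference between bled and contralateral sides was not the same in knee and node by a test of the difference itself (limma, adjusted p under 0.05). The knee-minus-node values were −1.08 for Dbp, −1.60 for Tef, 1.88 for Nfil3, −1.71 for Nr1d1, −0.80 for Rora and −1.0009 for Bhlhe41. The contrast contains the contralateral knees in which Dbp and Tef were chosen for high values. Negative values of these genes are therefore not independent of the choice.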

How the results depend on the processing

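The counts of called genes stayed within 1.5 times their reported value under every alternative run, at 6 to 7 for bled against contralateral knees, 5 for bled against sham knees, 0 between the nodes of both sides and 6 for the knee-minus-node side difference. With rat as a replicate block the counts were 6, 5, 0 and 6, and the block changed no call. The block uses 1 correlation for all probe sets, 0.08 in the knee fit and 0.27 in the node fit. It therefore does not capture the pairing of single genes. Leaving out all arrays of rat K2 was added after seeing the data. Bhlhe40 in bled against contralateral knees was also called in the groups compared alone (0.25, adjusted p = 0.0266) and with array weights (0.25). Dbp in sham knees against sham nodes lost its call in the groups compared alone (adjusted p = 0.0519), under quantile normalization (−0.37), centring (−0.41) and without the 3 sham arrays that stood apart (−0.41), and ran from −0.55 to −0.30 with single arrays left out. It lost its call without the sham knee of C5, C7 or C9 or the sham node of C3, C4 or C6. Without the sham knee of C5, Bhlhe40 was called in sham knees against sham nodes (0.40), and without the bled knee of K10, Bhlhe41 was called in bled knees against bled-side nodes (−0.32). Under quantile normalization Tef in bled knees against bled-side nodes was no longer called (−0.31), and Bhlhe40 in sham knees against sham nodes was (0.32). Differences that were not called changed sign near 0; the cause was not tested. Tef in bled against sham knees was −0.0522 with array weights and −0.0905 without the sham arrays that stood apart, and −0.0905 to 0.0821 with single arrays left out. Bhlhe41 there was −0.0061 without those arrays, and −0.0321 to 0.0939 with single arrays left out. Tef between the nodes was 0.0187 with the adipocyte mean as covariate, 0.0020 without K2, and −0.0658 to 0.0615 with single arrays left out. In the same comparison Bhlhe41 ran from −0.0593 to 0.0137 and Nfil3 from −0.0196 to 0.0934. Nr1d1 in bled knees against bled-side nodes was 0.0609 with centring and −0.0841 to 0.0569 with single arrays left out. The correlation of Dbp between sham knee and node was −0.0148 with centring. A second probe set per gene could not be tried, since each gene had 1. With 7 to 11 arrays a group, the number of arrays limits small differences.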
